A study of Mus musculus with 7 samples.

Results

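Clone A3 is a PECAM1+ clone of B16F10 and was set against the other PECAM1+ clones, A2, A4 and A5. Its 1 array and the 3 arrays of those clones are 4 of the 7 arrays measured. They were taken by clone name and PECAM status from the labels, and no measured value was used to choose them. For every gene, the difference was the log2 value of A3 minus the mean of A2, A4 and A5, so that 1 log2 unit is 2-fold. Its place outside the range of the 3 clones was recorded as well. A gene was counted as apart in A3 when it was at least 2-fold from that mean and outside that range. With a single array per clone no p-value was computed, and every value below describes these arrays.

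All arrays were Affymetrix Mouse Gene 1.0 ST arrays of total RNA. B16F10 is a pigmented mouse melanoma line grown in DMEM with serum, and the line and its clones were lifted with Accutase before RNA extraction. The B16F10 arrays held the parental line (PECAM1-), clone A1 (PECAM1-) and the PECAM1+ clones A2, A3, A4 and A5, with 1 array each. The remaining array held mouse dermal endothelial cells (MDEC), kept in an endothelial medium. The labels gave no drug or gene edit for any sample. They did not say how the clones were derived, whether they arose independently, or whether a clone was cultured more than once. Each clone stands on 1 array, and a difference between A3 and the others cannot be told apart from a difference between single cultures or hybridisations.

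Adherent cells read the stiffness of their surroundings and the tension of their actin fibres through transcription. YAP and TAZ enter the nucleus under tension, bind TEAD factors and raise genes such as Ankrd1, Ccn1 and Ccn2, and SRF with its actin-sensing partner MRTF raises genes of the contractile cytoskeleton. In pigment cells the factor MITF binds M-box elements and maintains the genes of pigment synthesis and melanosome transport. Melanoma lines are known for moving between pigmented states and less differentiated, more adhesive ones.

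The promoters below are shown because they belong to genes whose values differed between A3 and the other clones, described below, and hold a match of a motif bound by YAP and TAZ partners, SRF, AP-1 or MITF. Sequences are from RefSeq on GRCm38.p6, cover the 250 bases before the annotated start and run 5′ to 3′ on the strand of the gene. Capitals mark matches of GGAATG (TEAD) in Ankrd1, Ccn1 and Axl, of the CArG box (SRF) in Myl9, of TGANTCA (AP-1) in Plaur and of CATGTG (M-box) in Tyr and Trpm1, on either strand. The regions are chr19:36119845-36120094 for Ankrd1, chr3:145649986-145650235 for Ccn1, chr7:25788734-25788983 for Axl, chr2:156775214-156775463 for Myl9, chr7:24462233-24462482 for Plaur, chr7:87493513-87493762 for Tyr and chr7:64153585-64153834 for 1 of the promoters of Trpm1. Myl9, Plaur and Trpm1 lie on the plus strand, and the others on the minus strand.
Ankrd1: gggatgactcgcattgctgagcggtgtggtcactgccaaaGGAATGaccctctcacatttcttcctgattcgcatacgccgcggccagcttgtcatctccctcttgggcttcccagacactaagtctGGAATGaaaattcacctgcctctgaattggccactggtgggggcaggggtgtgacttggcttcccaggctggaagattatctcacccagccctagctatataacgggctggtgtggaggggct
Ccn1: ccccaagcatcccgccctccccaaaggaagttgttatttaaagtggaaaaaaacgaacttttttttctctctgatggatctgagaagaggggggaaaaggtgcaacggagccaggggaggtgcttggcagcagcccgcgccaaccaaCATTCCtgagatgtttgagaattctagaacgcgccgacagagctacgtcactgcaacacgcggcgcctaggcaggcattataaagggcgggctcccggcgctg
Axl: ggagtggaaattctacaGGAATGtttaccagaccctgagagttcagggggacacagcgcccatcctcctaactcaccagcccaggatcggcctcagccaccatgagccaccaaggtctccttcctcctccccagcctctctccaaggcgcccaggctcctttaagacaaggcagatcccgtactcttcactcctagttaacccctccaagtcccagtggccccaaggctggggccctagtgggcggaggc
Myl9: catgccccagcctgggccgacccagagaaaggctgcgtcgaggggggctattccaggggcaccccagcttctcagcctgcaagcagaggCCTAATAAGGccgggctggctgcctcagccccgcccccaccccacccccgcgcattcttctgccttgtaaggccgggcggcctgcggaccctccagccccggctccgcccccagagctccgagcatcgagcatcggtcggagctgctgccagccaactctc
Plaur: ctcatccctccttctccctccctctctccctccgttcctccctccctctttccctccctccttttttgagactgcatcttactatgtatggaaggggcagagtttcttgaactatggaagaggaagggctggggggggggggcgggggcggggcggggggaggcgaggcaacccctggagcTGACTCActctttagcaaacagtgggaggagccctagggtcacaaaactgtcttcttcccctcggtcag
Tyr: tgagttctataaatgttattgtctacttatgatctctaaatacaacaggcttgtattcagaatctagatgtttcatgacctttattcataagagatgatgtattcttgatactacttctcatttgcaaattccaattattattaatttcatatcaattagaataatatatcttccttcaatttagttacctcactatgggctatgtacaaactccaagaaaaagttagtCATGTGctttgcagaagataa
Trpm1: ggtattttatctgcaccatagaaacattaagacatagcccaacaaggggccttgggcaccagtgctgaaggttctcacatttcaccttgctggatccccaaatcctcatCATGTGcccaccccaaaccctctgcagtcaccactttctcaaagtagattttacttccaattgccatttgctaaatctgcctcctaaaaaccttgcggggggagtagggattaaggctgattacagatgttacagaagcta
The promoters of Cnn1 and Acta2 in the table held no match of the CArG box, and that of Lcn2 none of TGANTCA, which says only that these letters are not in the window. None of the matches shown overlapped a match of another of the 4 motifs. The motifs were searched on both strands from 250 bases before to 50 bases after each start, in 32851 promoters of 27025 genes. GGAATG was in 14.7% of all promoters, TGANTCA in 7.81%, CATGTG in 14.2% and the CArG box in 1.63%. Among 22 promoters of 19 genes in a list of YAP, TAZ and TEAD targets, 11 held GGAATG. The CArG box was in 5 of 18 promoters (27.8%) of 14 genes in a list of actin and SRF targets, and CATGTG in 8 of 21 promoters (38.1%) of 16 melanocyte genes. The genes counted as higher in A3 had 49 promoters of 31 genes in the table, of which 16.3% held GGAATG, 12.2% TGANTCA, 6.12% CATGTG and 6.12% the CArG box. For the genes counted as lower, with 23 promoters of 16 genes, the shares were 17.4%, 4.35%, 17.4% and 0%. A match of letters is not a binding site, and factor binding was not measured here.

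The label of A3 held on its array. Pecam1, the adhesion receptor named by the label, was at a log2 value of 11.01 in A3, 11.07 in A2, 11.03 in A4 and 11.00 in A5. It was at 5.43 in clone A1, 5.27 in parental cells and 11.72 in MDEC, so A3 lay within the range of the other PECAM1+ clones and well above both PECAM1- arrays. Melanoma genes were high in A3 and low in MDEC. The pigment cell factor gene Mitf was at 11.50 in A3 and 7.34 in MDEC, Sox10 at 10.77 and 7.33, and the melanosome gene Mlana at 12.13 and 6.43. Several defining endothelial genes other than Pecam1 were low in A3 and high in MDEC, but not all. VE-cadherin (Cdh5) was at 5.05 against 12.41, the VEGF receptor Kdr at 4.68 against 9.15, and endomucin (Emcn) at 3.99 against 11.10. Endoglin (Eng) was as high in A3 as in MDEC, at 11.75 and 11.73, and was at 11.61 in parental cells. Vwf was not higher in MDEC, at 6.63 in A3 and 6.41 in MDEC. Of the B16F10 arrays, A3 was nearest to A5, with 30 genes at least 2-fold apart, and then to A2 with 110 and A4 with 159. Parental cells differed from A3 by that much in 231 genes and clone A1 in 1447.

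In A3, 44 genes of 19938 were at least 2-fold higher than the mean of the other PECAM1+ clones and above all 3 (0.221%), and 19 were lower (0.0953%). Together these 63 genes were 0.316% of all. The same rule, with each clone against the other 3 PECAM1+ clones, counted 60 genes for A4 (0.301%), 26 for A2 (0.13%) and 4 for A5 (0.0201%). The number of genes apart in A3 was thus close to that in A4. Examples among the higher genes are the matrix and matricellular protein genes Thbs1, Fn1 and Igfbp7, the acute-phase genes Lcn2 and Lbp, the actin-linked genes Cnn1 and Tagln2 and the protease genes Adamts4 and Adamts5. Others, such as Cdsn, Lurap1l, Aoc1, Vdr, Casp12 and Slc38a3, belong to none of these classes. The lower genes include a potassium channel (Kcnj13), a glycolytic enzyme (Aldoc) and the melanocyte ion channel Trpm1. Being 2-fold beyond each of the 3 clones, not only their mean, held for 12 genes above (0.0602%) and 3 below (0.015%), a rule added after the data were seen. The 12 were Lcn2, Igfbp7, Sdc3, Aldh1a1, Lurap1l, Ankrd1, Clu, Vdr, Nnmt, Aoc1, S100a6 and Cdsn, and the 3 were Aldoc, Bnc2 and Eya1.

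**Figure D1:**
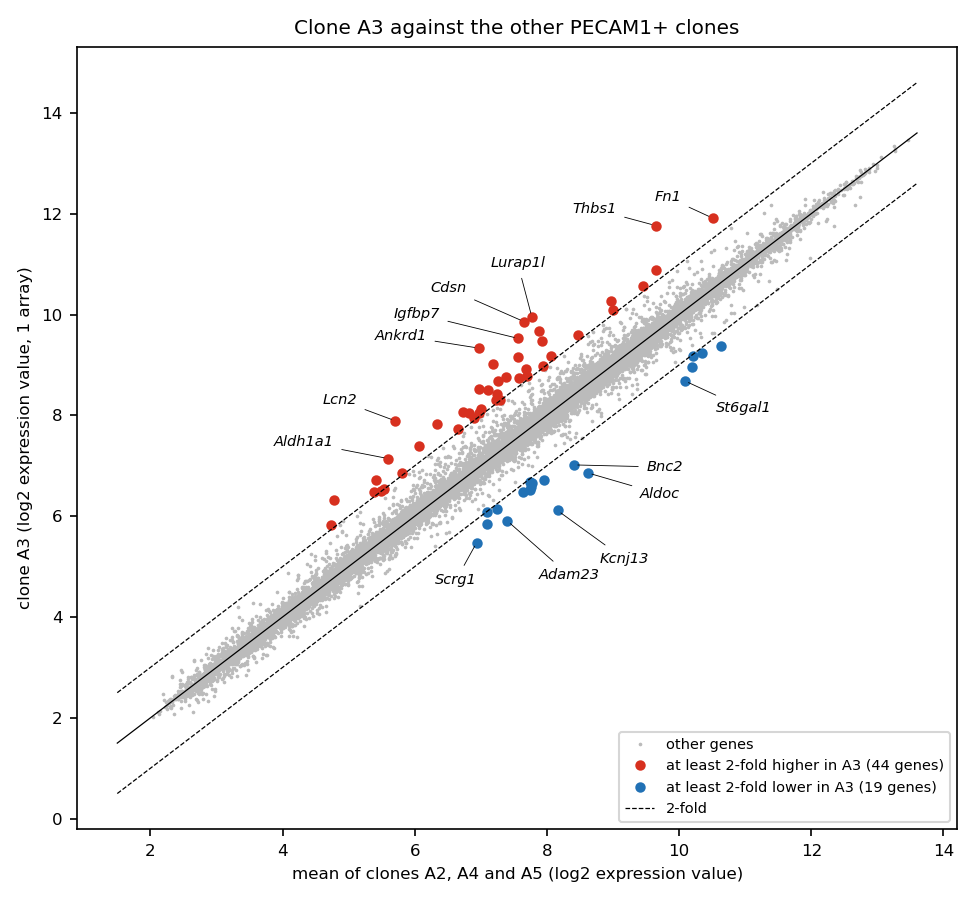
Log2 expression value in clone A3 (vertical axis) against the mean log2 value of clones A2, A4 and A5 (horizontal axis), 1 point per gene for 19938 genes. The solid line marks equal values, the dashed lines 2-fold, red points the 44 genes at least 2-fold higher and blue points the 19 genes at least 2-fold lower in A3, all outside the range of the 3 clones.

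Most differences were small. The median absolute difference of A3 was 0.0683 log2 units, and the median SD among the 3 other clones was 0.0954. Without regard to size, A3 was above the 3 clones for 4133 genes (20.7%) and below them for 3431 (17.2%). Nfix (1.00), Pak3 (1.01) and Mir100hg (1.02) lay just inside the 2-fold limit on the higher side, and Acta2 (0.9987), Scube3 (0.99) and Fam169b (0.98) just outside it. On the lower side Rarb (-1.02), Aph1c (-1.02) and Gpr37 (-1.06) lay just inside, and Thbs2 (-0.99), Gjb2 (-0.98) and Abca12 (-0.98) just outside. In 23.9% of genes A3 held exactly the value of at least 1 of the other clones, and such repeated values can make the spread between clones too small.

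Most targets of YAP, TAZ and TEAD were higher in A3, led by Ankrd1, the gene with the largest difference of all. Ankrd1 encodes a muscle ankyrin repeat protein and is a standard readout of YAP activity. Its log2 value was 6.71 in A2, 6.22 in A4, 7.98 in A5 and 9.33 in A3, beside 5.27 in clone A1, 6.08 in parental cells and 11.18 in MDEC. A3 was above every other B16F10 array, A5 was the next, and MDEC was higher still. The difference from the 3 clones, whose mean was 6.97 ± 0.91 (SD, n = 3), was 2.37 log2 units or 5.16-fold. As for every value from bulk RNA, more cells that express a gene cannot be told apart from more RNA per cell. Its promoter, printed above, held 2 matches of GGAATG.

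Thrombospondin-1 (Thbs1), a matricellular protein that binds cell-surface receptors and activates latent TGF-beta, was likewise highest in A3 and next highest in A5 among the B16F10 arrays. It was at 8.64 in A2, 9.30 in A4, 10.99 in A5 and 11.76 in A3, with 7.48 in clone A1, 8.19 in parental cells and 12.25 in MDEC. The single value of A3 lay 0.78 above A5 and 2.12 above the mean of the 3 clones (4.35-fold). Those clones spread widely, with an SD of 1.21 (n = 3). The next 4 members by size are given here. The receptor tyrosine kinase Axl was at 10.10 in A3 against 9.15, 9.01 and 9.42 in A2, A4 and A5 (difference 0.91). The matricellular gene Ccn2 was at 10.86 against 9.70, 10.09 and 10.13 (0.89), and Ccn1 at 11.27 against 10.54, 10.32 and 10.74 (0.74). In both, A3 was above all PECAM1+ clones, and for Ccn1 clone A1 was higher, at 11.93. The membrane repair gene Myof differed by 0.80.

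Of the 28 members of the list, 26 had a positive difference and 17 were above the range of the 3 clones, where 53.1% of all genes had a positive difference and 20.7% were above the range. Only Igfbp3 (-0.10) was below it. The median was 0.20 log2 units, where that of all genes was 0.0070. A3 was above all 5 other B16F10 arrays for 14 members and for 12.6% of all genes. Ankrd1 and Thbs1 were the 2 members past 2-fold, and both are among the genes that mark the comparison. This list, like the others, was chosen with earlier results of these data known, so its counts are a description and no independent support. The 28 members include genes of the pathway itself, so these counts are not of targets alone. Among them Yap1 was at 9.27 in A3 (difference 0.036, within the range). Wwtr1, which encodes TAZ, was at 8.70 (0.11), Tead1 at 9.59 (0.27) and Tead4 at 9.01 (0.28), all above the range. The medians of the list in the other B16F10 arrays, on the same scale, ran from -0.14 in clone A1 to 0.04 in A5. The median of A3 was 0.14 when A2 was left out and 0.28 when A5 was left out.

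**Figure D2:**
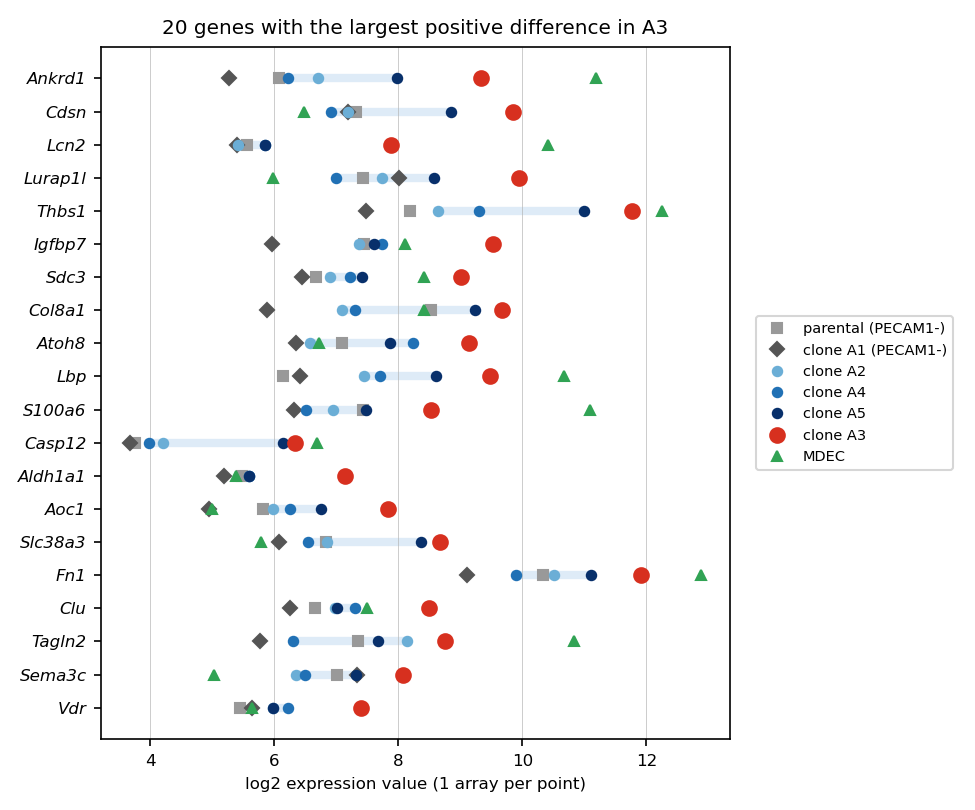
Log2 expression values (horizontal axis) on each of the 7 arrays for the 20 genes with the largest positive difference in clone A3 (rows), 1 point per array; the pale bar spans clones A2, A4 and A5. The red point of A3 lies to the right of the bar in every row, by 2.04 log2 units for Lcn2 and by 0.18 for Casp12, and A5 is often the nearest clone.

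Genes of the actin cytoskeleton and SRF targets were higher in A3 as well. Calponin-1 (Cnn1), an actin-binding protein of smooth muscle, was at 5.18 in A2, 5.30 in A4, 5.78 in A5 and 6.71 in A3, with 5.10 in clone A1 and 5.53 in parental cells. A3 was the highest of all 7 arrays, 1.29 above the mean of the 3 clones (2.45-fold). The mean of Cnn1 over the PECAM1+ clones was below a log2 value of 6, so this gene is not counted under an alternative with that minimum, and 7 of the 44 higher genes were below it. Smooth muscle actin (Acta2) was at 7.20 in A3 and at 6.08, 6.24 and 6.30 in A2, A4 and A5, a difference just short of 2-fold. The myosin light chain gene Myl9 was at 11.72 against 10.96, 10.34 and 11.07 (0.93). Caldesmon (Cald1, 0.81), calponin-2 (Cnn2, 0.72), alpha-actinin-1 (Actn1, 0.63) and tropomyosin-4 (Tpm4, 0.59) were also above the range of the other clones.

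All 16 members of this list had a positive difference, 12 were above the range and none was below it. Over all genes the shares were 53.1%, 20.7% and 17.2%. The median was 0.42 against 0.0070 for all genes. A3 was above all 5 other B16F10 arrays for 11 members and for 12.6% of all genes. The list's medians in the other B16F10 arrays lay between -0.22 in clone A1 and 0.10 in A5. Srf itself was at 8.84 in A3 and 0.41 above the mean of the 3 clones, while Mrtfa differed by 0.048 and transgelin (Tagln) by 0.063, both within the range. Transgelin-2 (Tagln2), a related actin-binding protein that was not in the list, was at 8.15 in A2, 6.31 in A4, 7.68 in A5 and 8.76 in A3. Its difference of 1.38 rested on the low value of A4 and was 0.85 without it.

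Some of these genes also mark fibroblasts and mural cells. The summed linear level of 16 such markers was 1820 in A3, 1320 in A2, 1390 in A4 and 1600 in A5. Of the 16, 7 were above the range of the 3 clones (20.7% of all genes were), Cnn1 and Acta2 among them. The defining fibroblast genes Pdgfra and Dcn were at 5.56 and 5.01 in A3. In the other clones Pdgfra ran from 5.46 to 5.69 and Dcn from 5.01 to 5.203. Pdgfrb, at 8.51, and Col1a1, at 7.76, were above the range. The part of these markers in the result was not tested. The summed level of 22 endothelial markers, Pecam1 among them, ran from 6170 to 6690 in the PECAM1+ clones, that of 16 leukocyte and platelet markers from 867 to 1090 and that of 16 keratinocyte markers from 723 to 755. A3 held the highest of the 4 values in each of these sets, as it did for the fibroblast and mural markers.

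Some of the remaining higher genes encode secreted or matrix proteins. Igfbp7, a secreted IGF-binding protein, was at 7.37 in A2, 7.73 in A4, 7.60 in A5 and 9.53 in A3, with 5.96 in clone A1, 7.45 in parental cells and 8.11 in MDEC. A3 was the highest of all 7 arrays. The other 3 clones lay close together, at a mean of 7.57 ± 0.19 (SD, n = 3), and A3 was 1.96 above it (3.88-fold). Fibronectin (Fn1), the main adhesive protein of provisional matrix, was at 10.52 in A2, 9.90 in A4, 11.11 in A5 and 11.91 in A3, with 9.11 in clone A1, 10.34 in parental cells and 12.89 in MDEC. A3 was the highest B16F10 array, A5 the next, and the difference was 1.41 (2.65-fold). Syndecan-3 (Sdc3), a heparan sulphate proteoglycan of the cell surface, was at 9.02 in A3 against 6.90, 7.22 and 7.42 (1.84). Collagen VIII (Col8a1), a collagen of vessel basement membranes, was at 9.67 against 7.09, 7.30 and 9.24, and only A5 came near A3. The secreted guidance protein gene Sema3c (1.35), the extracellular chaperone gene clusterin (Clu, 1.39), the matrix gene Ccdc80 (1.24) and the hyaluronan synthase gene Has2 (1.06) were also past 2-fold, and Has2 was short of it without A2 (0.76) or A4 (0.85).

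The matrix as a whole differed little in size, although more of its genes were higher than lower. Among 27 matrix proteins the median was 0.06, and 19 had a positive difference, where 53.1% of all genes had. Of the 27, 9 were above and 3 below the range, where 20.7% and 17.2% of all genes were. Fn1 was the 1 member past 2-fold. The 17 matricellular and IGF-binding genes had a median of 0.04, with 7 above and 4 below the range. Within that list Thbs2, a close relative of Thbs1, lay in the opposite direction. It was at 7.13 in A2, 7.25 in A4, 6.90 in A5 and 6.10 in A3, a difference of -0.99, and A3 was the lowest of the B16F10 arrays. Sparcl1 was lower too (-0.70), while Ccn4 (0.94) and periostin (Postn, 0.54) were higher.

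Most members of a list of NF-kB, acute-phase and cytokine genes were higher in A3, but its acute-phase genes other than Lcn2 were not as a group. Saa3 (-0.07), Hp (-0.01) and Saa1 (0.19) were within the range of the 3 clones, and Cfb (-0.23) was below it. Their levels in A3 were low, at 5.01 for Saa3, 4.86 for Hp, 2.66 for Saa1 and 5.85 for Cfb. A difference may not show at such levels. Lipocalin-2 (Lcn2), a siderophore-binding protein of the acute phase, was at 5.42 in A2, 5.85 in A4, 5.85 in A5 and 7.89 in A3, with 5.396 in clone A1, 5.57 in parental cells and 10.41 in MDEC. A3 stood alone among the B16F10 arrays, 2.04 above the nearest of the 3 clones, the widest such gap of any gene. A4 and A5 held the identical value, and the difference from the mean was 2.19 (4.56-fold). The lipopolysaccharide-binding protein gene Lbp was at 7.45 in A2, 7.70 in A4, 8.61 in A5 and 9.48 in A3, against 6.15 in parental cells and 10.68 in MDEC. A3 was the highest B16F10 array, and all PECAM1+ clones were above the PECAM1- arrays. The macrophage growth factor gene Csf1 was at 8.98 against 7.76, 7.96 and 8.10 (1.04, and 0.95 without A2), and the monocyte chemokine gene Ccl2 at 6.83 against 5.64, 6.05 and 6.05 (0.92). Smaller differences were found for the chemokine genes Cxcl2 (0.65), which was below a log2 value of 6 on all arrays, and Ccl5 (0.61).

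Of 32 genes of this group, 26 had a positive difference, 19 were above the range and 1 was below it. Over all genes the shares were 53.1%, 20.7% and 17.2%. Very small differences count as positive too, such as 0.0042 for Tnfaip3. The median was 0.15, and Lcn2 and Csf1 were past 2-fold. Among members with a mean log2 value of at least 6 over the PECAM1+ clones, A3 included, the median was 0.38. Lcn2 and Ccl2 reach that minimum only through A3, as their means in A2, A4 and A5 were 5.70 and 5.91. Leukocyte markers were not higher as a group: Ptprc was at 4.96 in A3 and Cd3e at 6.38, and the median of 16 leukocyte and platelet markers was 0.0089. Lysozyme (Lyz2) had the largest difference among those markers, at 8.03 in A3 against 6.34, 7.87 and 7.09 (0.93).

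Proteases, their receptors and their inhibitors differed in both directions. The urokinase receptor gene Plaur, which focuses plasmin at the cell surface, was at 8.08 in A2, 7.52 in A4, 8.60 in A5 and 9.17 in A3. A3 was the highest B16F10 array, and the difference of 1.10 was 0.83 without A4. The aggrecan-cleaving proteases Adamts4 (10.09 against 8.90, 8.65 and 9.45) and Adamts5 (7.95 against 6.75, 6.75 and 7.21) were also past 2-fold. Without A4 their differences were 0.92 and 0.97, and without A2 that of Adamts5 was 0.97. The inhibitor genes Timp3 (0.70) and Timp1 (0.62) were above the range as well. Heparanase (Hpse), which cuts heparan sulphate chains, lay the other way, at 7.44 in A2, 7.27 in A4, 6.56 in A5 and 5.84 in A3. A3 was the lowest B16F10 array for Hpse, -1.25 from the mean of the 3 clones, and clone A1 was the highest at 10.19. Over the 21 genes the median was 0.21, with 13 above and 3 below the range (20.7% and 17.2% of all genes).

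Retinoid genes were divided. Aldh1a1, which oxidises retinal to retinoic acid, was at 7.14 in A3 and at 5.60 in each of A2, A4 and A5, with 5.19 in clone A1, 5.49 in parental cells and 5.38 in MDEC. A3 was the highest of all 7 arrays, 1.55 above the others (2.92-fold). The 3 clones held the identical value, so their spread gives no error for this gene. The mean of Aldh1a1 over the PECAM1+ clones was also below the minimum log2 value of 6, under which this gene is not counted. The near-identical paralog Aldh1a7 was higher in A3 too, at 4.88 against 3.95, 4.28 and 4.002, and cross-hybridisation between the pair was not tested. In the other direction, the retinoic acid receptor gene Rarb, itself induced by retinoic acid, was at 7.68 in A2, 7.16 in A4, 6.44 in A5 and 6.07 in A3. A3 was lowest among the B16F10 arrays, at -1.02 from the mean, or -0.73 without A2 and -0.99 without A4. The retinal reductase gene Dhrs3 differed by -0.81. Over the 21 genes of the list the median was -0.022, with 7 above and 3 below the range (20.7% and 17.2% of all genes).

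Several of the largest differences belonged to genes of no list. Corneodesmosin (Cdsn), an adhesion protein of the epidermis, was at 7.19 in A2, 6.92 in A4, 8.85 in A5 and 9.86 in A3 (2.21, 4.61-fold). The adaptor gene Lurap1l was at 7.75 in A2, 6.996 in A4, 8.58 in A5 and 9.95 in A3 (2.18, 4.52-fold). For both, A3 was the highest of all 7 arrays and A5 the next of the PECAM1+ clones. The median of 16 keratinocyte markers was 0.02, with Krt5 at 5.34 in A3, so Cdsn was not accompanied by that group as a whole. Krt14 had the largest difference among them, at 5.97 in A3 against 5.46, 5.55 and 5.60 (0.43).

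Further genes past 2-fold fell into various classes. The transcription factor gene Atoh8 was at 9.15 in A3 against 6.57, 8.25 and 7.87 (1.59), and the vitamin D receptor gene Vdr at 7.40 against 5.98, 6.22 and 5.98 (1.34). The calcium-binding protein gene S100a6 was at 8.53 against 6.95, 6.51 and 7.48 (1.55). For Atoh8 and Vdr A3 was the highest of all 7 arrays, and for S100a6 MDEC was higher, at 11.09. Caspase-12 (Casp12) differed by 1.55, but A5 was at 6.15 and A3 at 6.33, while A2 and A4 were at 4.21 and 3.98, so A3 and A5 formed a pair. The glutamine transporter gene Slc38a3 showed the same pair, at 8.68 in A3 and 8.37 in A5 against 6.85 and 6.55. The diamine oxidase gene Aoc1 was at 7.83 against 5.98, 6.26 and 6.76 (1.502), and A3 stood alone. The myelin fatty acid-binding protein gene Pmp2 was at 10.27 against 7.91, 9.48 and 9.52, a difference of 1.30 that was 0.78 without A2.

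Most genes of melanocyte differentiation were lower in A3. Trpm1, an ion channel of melanocytes, was at 7.35 in A2, 8.51 in A4, 7.35 in A5 and 6.53 in A3, with 7.80 in clone A1 and 7.23 in parental cells. A3 was the lowest B16F10 array and A4 the highest. The difference was -1.21, and -0.83 without A4. Tyrosinase (Tyr), the enzyme that starts melanin synthesis, was at 10.29 in A2, 10.84 in A4, 10.38 in A5 and 9.63 in A3, with 10.29 in clone A1 and 8.49 in parental cells. A3 was the lowest PECAM1+ clone for Tyr (-0.87), but parental cells were lower still.

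The melanosome transport gene Rab27a was at 9.64 in A3 against 10.45, 10.40 and 10.09 (-0.67), lowest of the B16F10 arrays. The melanosome fibril gene Pmel was at 12.17 against 12.61, 12.82 and 12.54 (-0.48). Smaller values of A3 were also found for the melanosome transporter genes Oca2 (-0.90) and Slc45a2 (-0.59), the melanosome receptor gene Gpr143 (-0.65), the receptor gene Met (-0.63) and the pigment enzyme gene Dct (-0.40). The regulator Mitf was at 11.50 in A3 against 11.87, 11.95 and 11.69 (-0.33), below the range. Tyrp1 (-0.092) and Sox10 (-0.14) were within it.

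Of the 23 members, 21 had a negative difference (44.8% of all genes had) and 16 were below the range of the 3 clones (17.2% of all genes were), and Pax3 alone (0.048) was above it. The median was -0.35 against 0.0070 for all genes. A3 was below all 5 other B16F10 arrays for 9 members and for 10.4% of all genes. The median of the list in the other B16F10 arrays ran from -0.13 in A5 to 0.16 in A4, and it was -4.50 in MDEC. A4 thus had the highest median of the B16F10 arrays and A3 the lowest, and without A4 the median of A3 was -0.28.

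**Figure D3:**
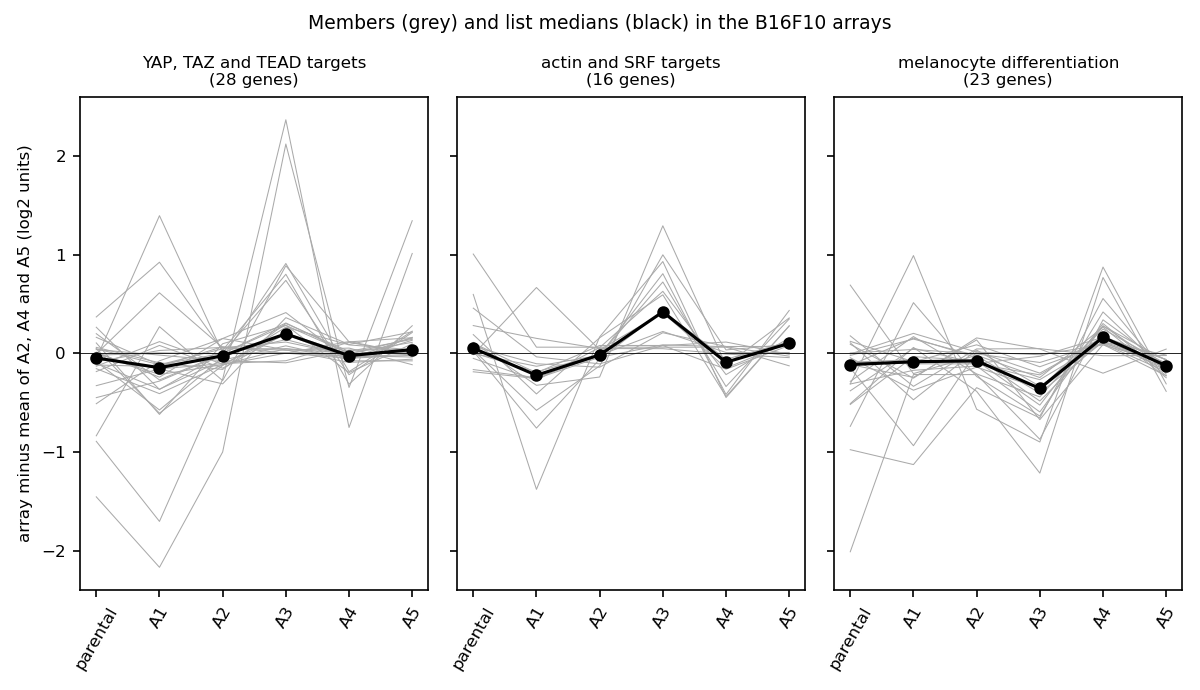
Difference of each B16F10 array from the mean of clones A2, A4 and A5 in log2 units (vertical axis) for the members of 3 gene lists (grey lines, 1 per gene) and their median (black points), by array (horizontal axis, in no order of any quantity). The median of A3 is 0.20 for the YAP, TAZ and TEAD targets, 0.42 for the actin and SRF targets and -0.35 for the melanocyte genes, farther from 0 than that of any other B16F10 array in each panel; A2, A4 and A5 are part of the mean they are set against.

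The other genes lower in A3 were led by Kcnj13, which encodes an inwardly rectifying potassium channel. It was at 8.13 in A2, 9.37 in A4, 6.98 in A5 and 6.11 in A3, with 11.61 in clone A1 and 5.88 in parental cells. A3 was near parental cells, MDEC was lower at 5.39, and the other B16F10 clones spread widely above A3. The difference was -2.05 log2 units (4.13-fold lower). Aldolase C (Aldoc), a glycolytic enzyme, was at 8.27 in A2, 8.96 in A4, 8.64 in A5 and 6.86 in A3, with 11.18 in clone A1 and 9.42 in parental cells. A3 was far below all other B16F10 arrays for Aldoc (-1.76, 3.40-fold lower), and the 3 clones varied by an SD of 0.35 (n = 3). It was not accompanied by the 22 hypoxia and glycolysis genes, whose median was 0.0075, although the lactate exporter gene Slc16a3 was lower (-0.66).

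Bnc2 and Eya1, a zinc finger gene linked to pigmentation and a transcriptional cofactor gene, shared that clear gap. Bnc2 was at 8.15 in A2, 8.64 in A4, 8.42 in A5 and 7.02 in A3 (-1.39), and Eya1 at 10.49 in A2, 10.92 in A4, 10.49 in A5 and 9.37 in A3 (-1.27). A3 was the lowest B16F10 array for both. The sialyltransferase gene St6gal1, which adds sialic acid to N-glycans, was at 8.68 in A3 against 10.10, 10.49 and 9.66 (-1.40). The lipid hydrolase gene Mgll was at 6.47 against 7.85, 7.93 and 7.12 (-1.16), and clone A1 was at 10.94.

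The remaining lower genes depended more on A4. Scrg1 was at 8.89 in A4 but at 6.17 and 5.75 in A2 and A5, and its difference of -1.46 was -0.48 without A4. That of Atp10b was -1.11 with A4 and -0.33 without it, and that of the receptor gene Gpr37 was -1.06 and -0.63. Without A4, Adam23 (-0.98), Cmtm5 (-0.98), Sema6d (-0.99), the amino acid transporter gene Slc7a8 (-0.94) and the gamma-secretase gene Aph1c (-0.87) were just short of 2-fold too. The small GTPase gene Rab17 (-1.23) and Fam174b (-1.11) were past 2-fold with and without it. In all, A4 was the farthest clone from A3 for 17 of the 19 lower genes and for 22 of the 44 higher ones, where A4 was the highest of the 3 for 24.7% and the lowest for 34.8% of all genes. A2 was the farthest for 19 of the higher genes.

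**Figure D4:**
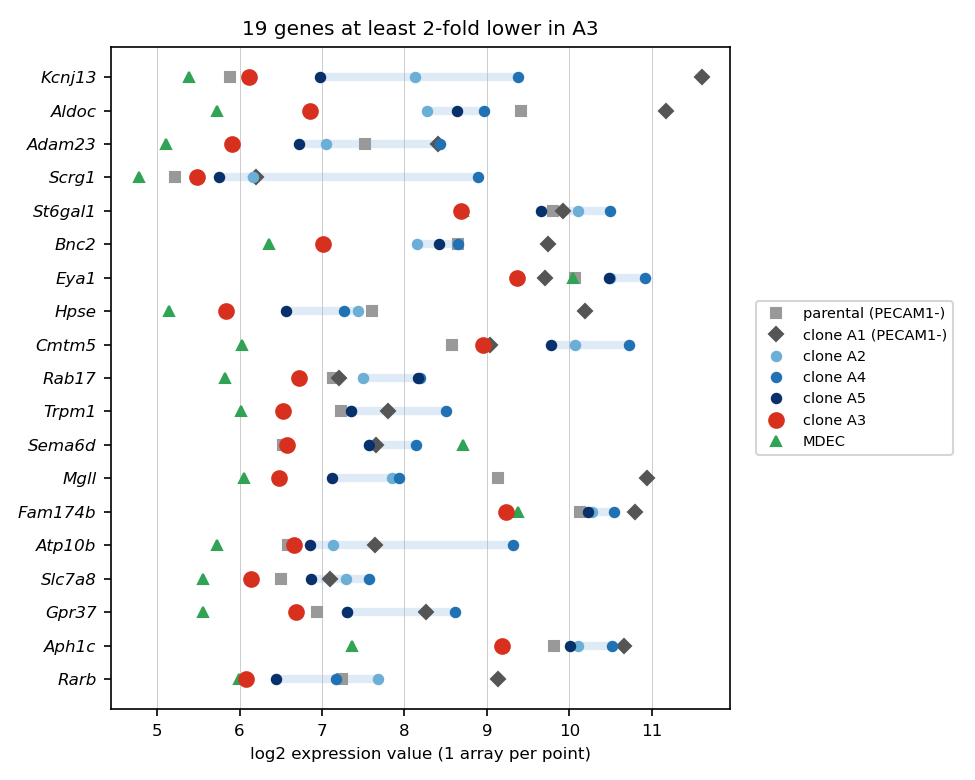
Log2 expression values (horizontal axis) on each of the 7 arrays for the 19 genes at least 2-fold lower in clone A3 (rows), 1 point per array; the pale bar spans clones A2, A4 and A5. The red point of A3 lies to the left of the bar in every row, by 1.41 log2 units for Aldoc and by 0.19 for Atp10b.

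Integrins and focal adhesion genes were moderately higher in A3. Integrin alpha-3 (Itga3), a laminin receptor chain, was at 5.82 in A2, 6.01 in A4, 6.35 in A5 and 6.87 in A3 (0.81), and A3 was the highest B16F10 array. Integrin beta-5 (Itgb5, 0.52), a vitronectin receptor chain, and the actin crosslinker gene filamin A (Flna, 0.48) were above the range, as were zyxin (Zyx, 0.44) and vinculin (Vcl, 0.31). Integrin alpha-9 (Itga9) was lower, at 6.99 against 7.90, 7.89 and 7.55 (-0.79). Of the 23 genes, 21 had a positive difference and 14 were above the range (53.1% and 20.7% of all genes), with a median of 0.17. No member was past 2-fold.

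Angiogenic ligands had a median of 0.22 over 19 genes, of which 10 were above and 2 below the range (20.7% and 17.2% of all genes). Pdgfb, which recruits mural cells to vessels, was at 7.78 in A3 against 6.91, 6.68 and 6.97 (0.92), and Fgf7 at 5.24 against 4.14, 4.58 and 4.58 (0.81). Vegfa differed by 0.22 and Vegfb by -0.38. The list median was 0.10 without A4.

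Other lists had medians close to that of all genes, although some leaned to 1 side in counts. The median was 0.08 for 25 cell cycle genes, 0.02 for 19 NRF2 and glutathione genes and -0.017 for 16 p53 targets. For 23 genes of cholesterol and fatty acid synthesis it was -0.028, and for 22 endothelial markers -0.0022. Of the cell cycle genes, 19 had a positive difference and 11 were above the range (53.1% and 20.7% of all genes). Of the cholesterol and fatty acid genes, 18 had a negative difference and 7 were below the range (44.8% and 17.2% of all genes). For the epithelial-mesenchymal transition list of 17 genes the median was 0.06. There N-cadherin (Cdh2) was at 11.24 in A3 against 10.50, 9.98 and 10.98 (0.75), and the repressor gene Snai2 differed by 0.59. Among 21 genes of dedifferentiated and neural crest-like melanoma the median was 0.08, with 10 above and none below the range. Nestin (Nes) was at 10.11 against 9.11, 9.26 and 9.55 (0.80), and the nerve growth factor receptor gene Ngfr differed by 0.54.

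**Figure D5:**
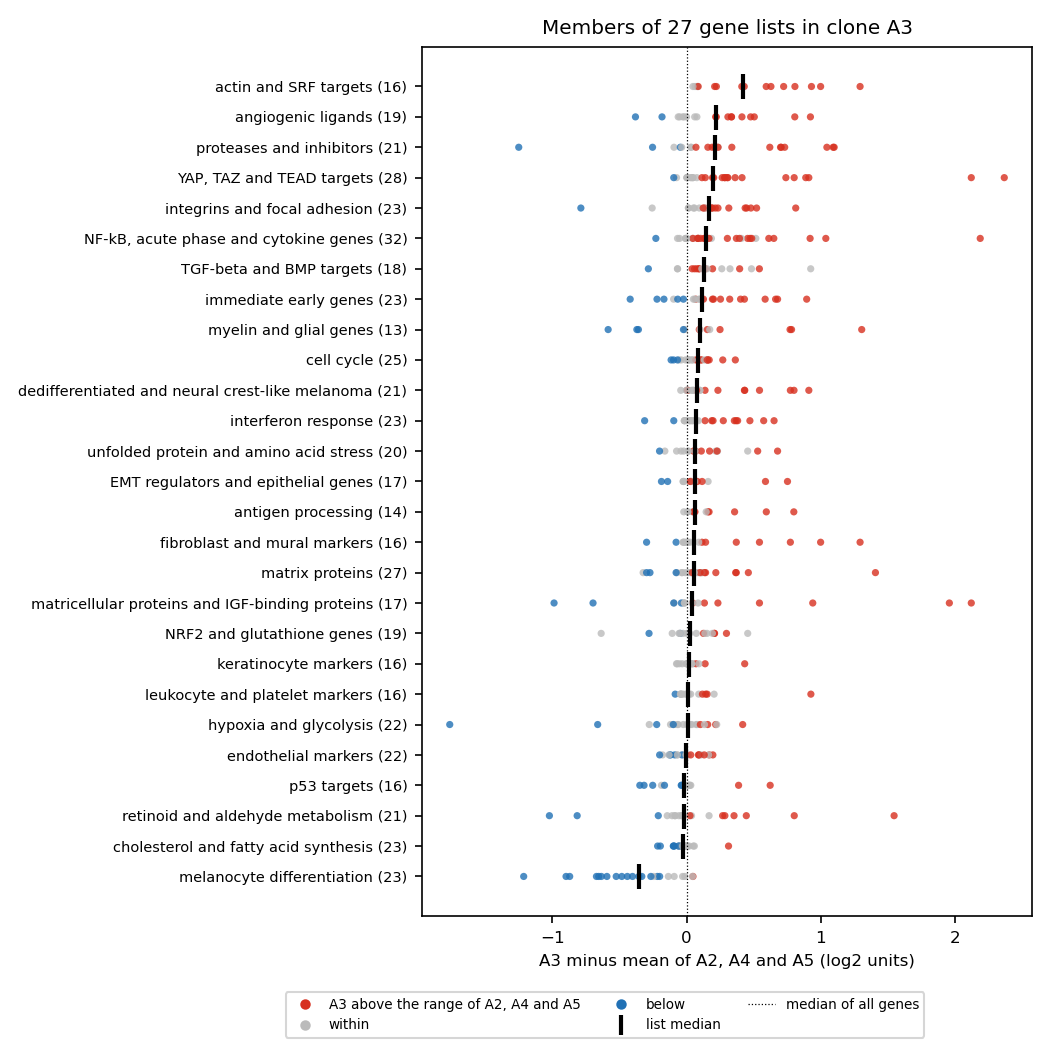
Difference of clone A3 from the mean of clones A2, A4 and A5 in log2 units (horizontal axis) for the members of 27 gene lists (rows, with the number measured), 1 point per gene, with the list median as a black bar. Red points are above, blue points below and grey points within the range of the 3 clones; the actin and SRF targets have the highest median (0.42) and the melanocyte genes the lowest (-0.35).

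Parental cells, clone A1 and MDEC, which did not enter the rule, placed the same genes as follows. The other 5 B16F10 arrays named here include A2, A4 and A5, against which the genes were chosen. A3 was above all 5 other B16F10 arrays for 42 of the 44 higher genes, the others being Isg20 and C1s1, for which clone A1 was higher (10.28 and 6.501, against 8.91 and 5.83 in A3). It was below them for 14 of the 19 lower genes, and in Kcnj13, Scrg1, Cmtm5, Sema6d and Atp10b parental cells were lower. Over all genes, A3 was above the other 5 B16F10 arrays for 2507 (12.6%) and below them for 2073 (10.4%). Of the genes above the 3 clones at any size, A3 was above the other 5 arrays for 60.7%, and of those below, below for 60.4%. These shares are not matched to genes chosen at 2-fold, for which a higher share is partly fixed by the rule. MDEC was above A3 for 13 of the 44 higher genes (29.5%), where it was above A3 for 45.1% of all genes. It was below A3 for 15 of the 19 lower genes (78.9%, against 46.4% of all). Both MDEC shares are affected by choosing the genes on their value in A3.

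Among the 3 clones, A5 was the nearest to A3 for 36 of the 44 higher and 13 of the 19 lower genes, whereas A5 was the highest of the 3 for 27.7% and the lowest for 22.9% of all genes. Leaving out A5 kept all 63 genes past 2-fold and raised the counts to 71 higher and 34 lower. Without A2, 10 of the higher genes and Rarb were under 2-fold, and without A4, 17 higher and 10 lower genes were. The genes apart in A3 were not gathered at 1 place in the genome. The median difference of the 20 chromosomes with over 100 genes ran from -0.024 to 0.035, and that of 763 windows of 50 neighbouring genes from -0.081 to 0.12, with at most 2 of the 63 genes in a window.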

How the data were processed

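The files hold 1 log2 expression value per probe set and array for 7 arrays, deposited by the authors. Per the submitters' processing notes Partek was used, with no version. How probe sets were summarised, background-corrected and normalized, and on which genome build, is not given in the sources used here. The scale was read from the values, which span 1.39 to 13.5, and the median of an array lay at 6.12 or more and 6.18 or less. The files used here hold no detection calls, so signal over background is unknown, and precision is limited by the 1 array per clone.

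The platform annotation gave a single symbol to 21789 of 35557 probe sets, and these were used; 1621 had several symbols and 12147 had none. Of the single-symbol ones, 21698 matched a RefSeq gene table (GRCm38.p6), used for names and gene order. For 999 genes with several probe sets, the brightest on average over the 7 arrays was kept, which gave 19938 genes. Arrays were not centred again. The text names the 6 genes that mark the comparison (Ankrd1, Thbs1, Igfbp7, Lcn2, Fn1 and Aldh1a1), the 20 largest positive and 20 largest negative differences past 2-fold (19 on the lower side) and up to 5 members of each of 27 gene lists. Predicted, olfactory and small RNA genes were to be counted only, and 0 were past 2-fold. Other genes were named after their values were seen. Members and lists were chosen with earlier results of these data known. Members of a list not covered by a single-symbol probe set used here, such as Spp1, Cdkn1a and H2-K1, were not analysed here.

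The alternatives were quantile normalization, median centring, the mean of probe sets and a minimum mean log2 value of 6 over the PECAM1+ clones, A3 included. Others were the median of the 3 clones, leaving out each clone, adding parental cells, and thresholds of 1.5-fold and 3-fold. The rule of 2-fold from each clone and the CArG box search were added after the data were seen. Values were computed with Python 3.11.15, pandas 2.3.3 and numpy 2.4.6 and plotted with matplotlib 3.10.9, and the size rule was tested on simulated data.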

Additional observations from a re-analysis of the deposited data

How the results depend on the processing

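The rule for naming genes chose 45 of those past 2-fold, which leaves out others named in the text, such as Has2, Nfix and Pak3. Of the 45, 31 stayed past 2-fold without A4 and 41 without A2. The number was 38 against the median of the 3 clones and 39 with parental cells added. Under the minimum mean 42 were left, without Aldh1a1, Cnn1 and Casp12. That mean includes A3, so a gene can pass through a high value of A3 alone. Lcn2 passed although its mean in A2, A4 and A5 was 5.70. The direction of the 45 genes against the 3 clones was fixed by the rule and is no check. The 44 higher and 19 lower genes became 41 and 19 after quantile normalization, 41 and 20 after median centring, 44 and 19 with the mean of probe sets, 37 and 19 with the minimum mean, 48 and 14 against the median of the 3 clones, and 58 and 11 with parental cells added. The counts were 212 and 91 at 1.5-fold, 9 and 2 at 3-fold, and 12 and 3 at 2-fold from each of the 3 clones. Leaving out 1 clone gave 39 to 71 higher and 9 to 34 lower genes. The median of the YAP, TAZ and TEAD targets was 0.27 with the minimum mean, 0.24 with parental cells added and 0.14 to 0.28 without 1 clone. That of the actin and SRF targets was 0.59 with the minimum mean. That of the acute-phase and cytokine genes was 0.38 with the minimum mean and 0.13 to 0.18 without 1 clone. The medians of melanocyte differentiation (-0.41 to -0.28) and of integrins (0.14 to 0.19) moved by less than the spread between the clones. Among the other values, 30 of the differences of single genes and 39 of the medians of other lists moved by more than that spread, where 1354 and 159 did not. The minimum mean acts by leaving fewer genes in each list, and some, such as Lcn2 and Ccl2, stay only through their value in A3. The cause of the other shifts was not tested. No paired analysis was possible because each clone has 1 array and the clones share no replicate numbers.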

Other observations

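A list of TGF-beta and BMP targets, ligands, binding proteins and receptors had a median difference of 0.13 in A3 over 18 genes. Of these, 9 were above and 1 below the range of A2, A4 and A5 (20.7% and 17.2% of all genes). Most of those above it were not targets but the ligand genes Tgfb1, Tgfb2, Tgfb3, Inhba and Bmp2 and the binding protein genes Ltbp1 and Ltbp2. The inhibitory SMAD gene Smad7 was at 8.58 in A3 against 7.81, 8.35 and 7.96 in A2, A4 and A5 (0.54). The BMP targets Id3 and Id1, inhibitors of basic helix-loop-helix factors, were at 9.18 and 8.94 in A3 but at 9.60 and 9.66 in A4, so A3 lay within the range for both, with A4 the highest and A2 the lowest of the PECAM1+ clones (7.15 and 7.57). Among 13 myelin and glial genes, which had a median of 0.10, the values of A3 went in both directions. Apod was at 8.93 against 7.84, 8.65 and 7.97 (0.78), and Pmp22 at 12.16 against 11.44, 10.94 and 11.81 (0.77). The calcium-binding protein gene S100b was lower, at 9.29 against 9.67, 10.46 and 9.50 (-0.58), and so was the neuregulin receptor gene Erbb3 (-0.37).

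Immediate early genes had a median of 0.11 over 23 genes, with 12 above and 5 below the range (20.7% and 17.2% of all genes). Clone A1 was above A3 for those named here. The AP-1 gene Fosl2 was at 8.30 in A3 against 7.24, 7.20 and 7.79 (0.90) and at 9.79 in clone A1. Atf3 differed by 0.68 and the phosphatase gene Dusp1 by 0.66, with clone A1 at 11.24 and 11.01. Interferon response genes had a median of 0.07 over 23 genes, with 10 above and 2 below the range, and Oasl2 was at 7.998 against 7.50, 7.35 and 7.19 (0.65). The 14 antigen processing genes had a median of 0.06, with 8 above and none below the range. The MHC class II chaperone gene Cd74 was at 6.91 against 5.72, 6.02 and 6.60 (0.80), and the peptide-loading gene Tapbp differed by 0.59. Genes of the unfolded protein and amino acid stress responses had a median of 0.065 over 20 genes, and Trib3 differed by 0.53.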
